A study of Arabidopsis thaliana with 12 samples.

Results

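The 4 genes described here encode small or peripheral parts of the light reactions of photosynthesis: PSBW (AT2G30570) and PSBY (AT1G67740) of photosystem II, PSAN (AT5G64040) of photosystem I, and LHB1B2 (AT2G34420) of the photosystem II antenna. They were taken by name, as genes with a probe whose annotation lists no other gene. Each had 1 such probe, so the members are 4 of 689 genes with a probe of their own, on an array with 3439 probes. The samples were 6 titled prors1_dark and 6 titled WT1_dark, here called prors1 and WT, of total RNA from Arabidopsis thaliana, all dark adapted overnight. The mutant prors1 is labelled as lacking prolyl tRNA synthetase, which charges the proline transfer RNA, and WT is the Columbia 0 accession. The source label of the prors1 samples also reads WT, and groups were therefore assigned by title. The labels give no allele, tissue or age, and none says that the samples came from separate plants. The p-values below therefore speak only of the spread from array to array, which may be technical.

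Photosystem II splits water and photosystem I reduces ferredoxin, and both sit in the thylakoid membrane of the chloroplast with core subunits translated on plastid ribosomes. The 4 genes are nuclear, and their products are made in the cytosol and imported. PsbW is a small membrane subunit known for holding photosystem II and its antenna together, and PSBY encodes a precursor that is cut into a pair of small photosystem II proteins. PsaN lies on the lumenal side of photosystem I, where plastocyanin docks. LHB1B2 is one of several nearly identical genes for Lhcb1, the main protein of the light-harvesting trimers. Prolyl tRNA synthetase of this locus is known to serve both chloroplasts and mitochondria.

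In dark-adapted prors1 the PSBW transcript rose about 3-fold, while PSBY, PSAN and LHB1B2 did not pass the test. After quantile normalization the PSBW fold was 3.27 (log2 fold prors1 over WT 1.71 ± 0.22, SE, 3 arrays per group, limma adjusted p = 0.00397). One of the 4 genes was thus called higher and 0 lower at an adjusted p under 0.05, where 26.3% of the 2908 tested probes were called, 12.8% higher and 13.5% lower. The call did not hold under median scaling, described further on. The median log2 fold was -0.33 over the 4 genes and -0.06 over all tested probes. It was -0.19 over the brightest of 8 classes of probes by mean intensity, which holds all 4 genes. Fewer cells that use a gene and less RNA of it per cell cannot be told apart in such bulk RNA.

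The values are linear intensities of unknown unit with a ceiling of 100. Adjacent pairs of columns in a group (1 with 2, 3 with 4, 5 with 6) were so alike that they were taken as repeat readings. No label states this. The averages of the pairs are called arrays, 3 per group. The summed intensity of a column lay between 2632 and 3456 in prors1 and between 2312 and 2840 in WT, and the median of the values above 0 from 0.407 to 0.520 in prors1 and from 0.224 to 0.289 in WT. Precision is limited by this small number of arrays. Of 56 nuclear genes in 4 lists of photosystem, antenna and electron transport proteins, these 4 alone had a probe of their own. Another 5 were listed only on probes that name several genes and were not used. None of 11 markers of root, seed, green leaf and dark-treated or senescing leaf had a probe of its own, so the tissue was not checked.

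PSBW read 25.01, 42.5 and 32.2 on the prors1 arrays, against 11.4, 11.1 and 11.8 on the WT arrays. Every prors1 array lay above every WT array, and the same held for single columns, with 24.4 to 42.8 in prors1 and 10.3 to 12.5 in WT. The mean was 33.2 ± 8.81 in prors1 and 11.4 ± 0.310 in WT (SD, n = 3 arrays each), a ratio of 2.91. As deposited, the arrays of prors1 differed among themselves far more than those of WT. The coefficient of variation was 26.5% in prors1 and 2.72% in WT. Of the summed intensity of a column PSBW took 1.13% ± 0.158 in prors1 and 0.462% ± 0.0586 in WT (SD, n = 3 arrays each). Relative to their means these 2 spreads were close to each other. The prors1 array with the highest value, array 2, was also the one with the highest total intensity, whose part in the value was not tested.

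PSBY showed no such separation. It read 1.301, 1.602 and 1.327 on the prors1 arrays, against 1.148, 1.647 and 1.451 on the WT arrays. The groups overlapped, and in each of them array 2 was the brightest. The means were 1.41 ± 0.167 in prors1 and 1.42 ± 0.252 in WT (SD, n = 3 arrays each). The normalized log2 fold was -0.23 (95% interval -0.74 to 0.27, limma adjusted p = 0.459).

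PSAN read 2.2, 3.48 and 3.34 on the prors1 arrays, against 3.31, 3.71 and 3.46 on the WT arrays. The prors1 mean of 3.01 ± 0.705 lay under the WT mean of 3.49 ± 0.206 (SD, n = 3 arrays each), but the groups overlapped, and prors1 array 1 was the one prors1 array well below all WT arrays. The normalized log2 fold was -0.43 (95% interval -0.95 to 0.09, limma adjusted p = 0.193). An interval of this width takes in both no difference and a sizeable fall.

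LHB1B2, the antenna gene, read 8.54, 15.2 and 17.8 on the prors1 arrays, against 18.4, 25.2 and 31.1 on the WT arrays. The arrays of the groups did not overlap, although single columns did, with 19.1 as the highest in prors1 and 18.0 as the lowest in WT. In both groups array 1 had the lowest and array 3 the highest value. The mean was 13.9 ± 4.79 in prors1 and 24.9 ± 6.37 in WT (SD, n = 3 arrays each), a ratio of 0.557. The log2 fold was -0.88 ± 0.35 as deposited (SE, limma adjusted p = 0.0670), where 2.82% of all probes were called lower, and -0.45 (95% interval -1.21 to 0.30, limma adjusted p = 0.335) after quantile normalization. With the array number as replicate block, a pairing that no label gives, the fold as deposited was called (limma adjusted p = 0.0231). After quantile normalization with that block it was not (limma adjusted p = 0.151). The genes for Lhcb1 are close copies, and LHB1B1 is the next protein-coding gene to LHB1B2 in the gene table. How far the probe also binds transcripts of the other copies is not given, so the value may be a sum over several of them.

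**Figure D1:**
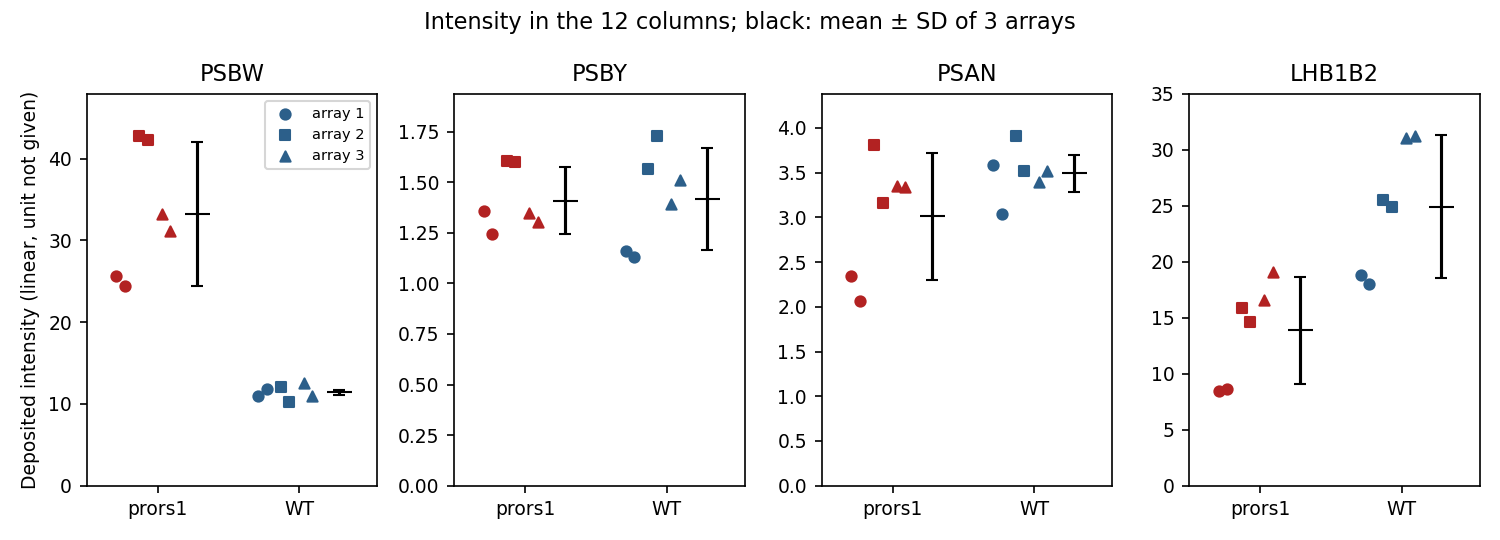
Deposited intensity (linear, unit not given) of each gene in the 12 columns, prors1 left in red and WT right in blue, with a marker shape for each array and the mean ± SD of 3 arrays in black. PSBW lies between 24.4 and 42.8 in all prors1 columns and between 10.3 and 12.5 in all WT columns, LHB1B2 is lower on the prors1 arrays, and PSBY and PSAN overlap.

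Without any scaling, non-overlap of the arrays was frequent on this array, and mostly in 1 direction. Among 2867 probes measured on all arrays, 52.8% were higher on every prors1 array than on every WT array, as PSBW was, and 5.44% were lower, as LHB1B2 was. An exact permutation test over 3 arrays against 3 cannot go below p = 0.1, and both genes reached that value as deposited (two-sided). The exact p was 0.5 for PSAN and 1 for PSBY.

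All 4 genes belong to the brightest of 8 classes of probes by mean intensity, where the folds as deposited were centred elsewhere than in the other classes. The median log2 fold was 0.65 to 1.05 in the 7 dimmer classes and 0.02 over the 364 probes of the brightest. Within the class 49 probes had a higher fold than PSBW and 314 a lower one. LHB1B2 stood near the other end, with 38 probes lower and 325 higher, while 186 probes lay above PSBY and 177 below it, and 224 above PSAN and 139 below it. PSBW and LHB1B2 were also among the 50 brightest probes of all, whose median log2 fold was -0.52 as deposited. Of those 50, 14 lay below LHB1B2 and 5 above PSBW. As deposited, 36% of the 50 were called lower, and LHB1B2 was not. After quantile normalization 18% of them were called higher, PSBW among them. The median log2 fold as deposited over probes within 50 probe numbers was 0.55 around PSBW, 1.03 around PSBY, 0.88 around PSAN and 0.74 around LHB1B2. After removal of a running median along probe numbers the log2 fold of PSBW was 1.98 (limma adjusted p = 0.00134), of PSBY -0.51 (0.0852), of PSAN -0.39 (0.174) and of LHB1B2 -0.29 (0.454).

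**Figure D2:**
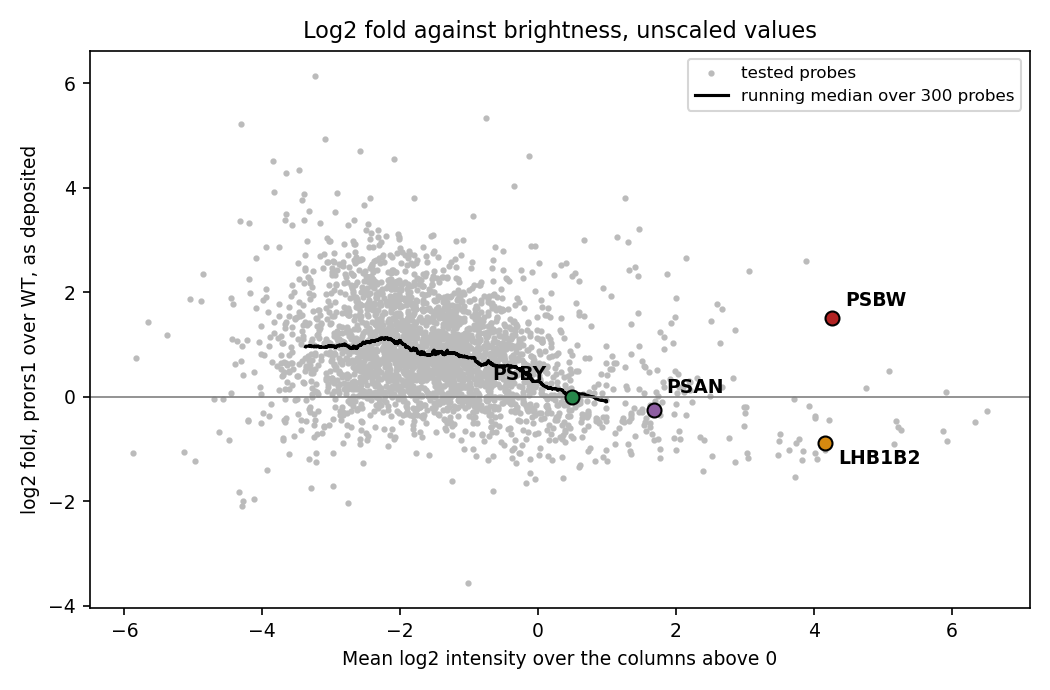
Log2 fold prors1 over WT on the values as deposited (vertical) against mean log2 intensity (horizontal) for the 2908 tested probes, with a running median over 300 probes as the black line. Most dim probes lie above 0, and the line falls toward 0 at its bright end. The window leaves the line without values over the brightest probes, PSBW (log2 fold 1.51) and LHB1B2 (-0.88) among them. PSBW stands above and LHB1B2 below the median of -0.52 over the 50 brightest probes.

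A change of scale moves all probes of a column alike and leaves the place of a gene within its column as it was. Quantile normalization sets each value by this place, so the ranks largely restate the normalized values and are no separate test. PSBW ranked 8 to 11 from the top in the prors1 columns and 28 to 37 in the WT columns, with no overlap, and 13.2% of tested probes were likewise placed higher in every prors1 column than in any WT column (16.7% lower). LHB1B2 ranked 14 to 27 in prors1 and 10 to 20 in WT, PSAN 96 to 150 in prors1 and 74 to 99 in WT, and PSBY 261 to 313 in prors1 and 182 to 266 in WT. These last 3 were placed lower in prors1 on the whole, but each overlapped between the groups. Ranks of different genes are not compared, since probes may differ in sensitivity.

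As a share of the summed intensity of a column, PSBW took 1.13% ± 0.158 in prors1 and 0.462% ± 0.0586 in WT (SD, n = 3 arrays each, exact permutation p = 0.1, two-sided). LHB1B2 took 0.478% ± 0.174 in prors1 and 1.004% ± 0.288 in WT, and PSAN 0.103% ± 0.0208 in prors1 and 0.140% ± 0.00815 in WT. For PSAN and LHB1B2 every prors1 array lay below every WT array (exact permutation p = 0.1 each, two-sided), which held for 9.59% of probes, and for PSBW every prors1 array lay above, which held for 44.7%. PSBY took 0.0485% ± 0.00162 in prors1 and 0.0565% ± 0.00660 in WT and overlapped (exact permutation p = 0.3). The shares of the 4 genes summed to 1.40%, 1.83% and 2.04% on the prors1 arrays, against 1.47%, 1.48% and 2.04% on the WT arrays. The sums overlapped between the groups.

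The genes were then set against each other within each array, where any common scale of a column drops out. Only the change of such a log2 difference between the groups is read, not its level. The difference PSBW minus LHB1B2 was 1.55, 1.48 and 0.85 on the prors1 arrays, against -0.69, -1.18 and -1.41 on the WT arrays. It was higher by 2.39 ± 0.31 on the log2 scale in prors1 (SE, 3 arrays per group), so the ratio of the 2 signals was 5.24-fold higher. Against PSAN the difference of PSBW was higher by 1.75 ± 0.12, and against PSBY by 1.505 ± 0.212. In these 3 pairs no prors1 array overlapped a WT array. These values stay the same under any factor common to a column.

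Among the other 3 genes the differences were smaller. Like those of PSBW against PSAN and PSBY, they depended on the normalization. The difference PSBY minus LHB1B2 was higher by 0.88 ± 0.33 in prors1, and PSAN minus LHB1B2 by 0.64 ± 0.24 (SE), with no overlap of arrays as deposited. After quantile normalization, which does not move all probes of a column alike, these differences were 0.22 and 0.02, against 2.16, 2.14 and 1.94 for PSBW minus LHB1B2, PSAN and PSBY. PSBY minus PSAN had a difference of 0.25 ± 0.20 as deposited, where the arrays overlapped, and of -0.03 after cyclic loess. Of the 6 pairs compared, the 5 without overlap, as 46% of all pairs of probes were, had an exact permutation p of 0.1 (two-sided), the smallest that 3 arrays against 3 allow, and 0.12 after Benjamini-Hochberg adjustment over the 6. PSBY minus PSAN had an exact permutation p of 0.4. None of the 6 passes a threshold of 0.05, which this design cannot reach.

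**Figure D3:**
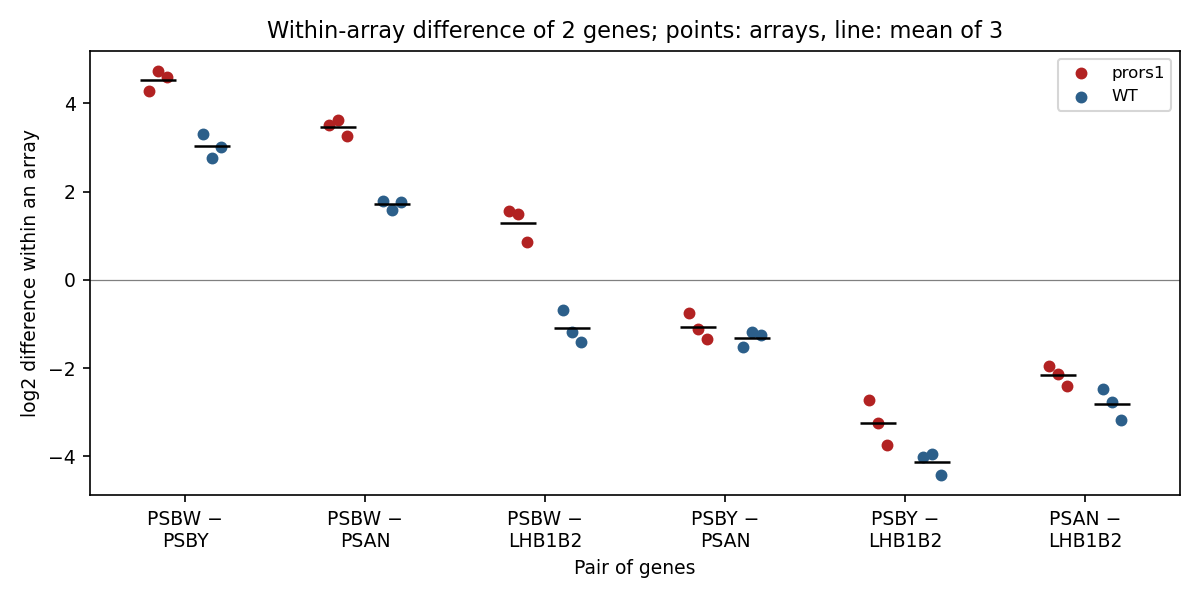
Difference of the log2 intensities of 2 genes within each array (vertical) for the 6 pairs (horizontal), prors1 in red to the left of WT in blue, with the mean of 3 arrays as a line. The groups are separate for the 3 pairs with PSBW and for both other pairs with LHB1B2, and they overlap for PSBY minus PSAN.

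How the columns are brought to a common scale decided the calls of single genes. PSBW was called higher with values as deposited (log2 fold 1.51), as were 43% of all probes, and with cyclic loess (1.92), with scaling on total intensity (1.29), on the brightest eighth of the probes (1.38) and with a constant per column taken off (1.501). Under these 4 scalings 12.9%, 31.7%, 37.6% and 7.41% of all probes were called higher. Median scaling ended its call (0.61 ± 0.27, limma adjusted p = 0.128). Like total and brightest-eighth scaling, it moves all probes of a column by the same amount on the log2 scale. It lowered the median log2 fold over all tested probes from 0.77 as deposited to -0.13, against 0.55 under total and 0.64 under brightest-eighth scaling. The brightest class, which holds all 4 genes, had a median of 0.02 as deposited and was lowered with the rest. What part this had in the lost call was not tested. LHB1B2 was called lower under total scaling (-1.10 ± 0.34, limma adjusted p = 0.0379) and median scaling (-1.78 ± 0.38, limma adjusted p = 0.0119), where 4.95% and 17.7% of all probes were called lower. PSAN and PSBY were called lower under median scaling alone among the 7 scalings (-1.14 and -0.90, limma adjusted p = 0.0189 and 0.0251). The log2 fold of PSBY as deposited had the opposite sign, at 0.0042. Values as deposited and total, brightest-eighth and median scaling differ by 1 factor per column, so the order of genes is fixed among them. PSBW had the highest log2 fold of the 4 genes under each of the 7 scalings. LHB1B2 had the lowest, but only by 0.02 below PSAN after quantile normalization, where leaving out prors1 array 1 (-0.27, and -0.33 for PSAN) or WT array 3 (-0.21, and -0.36 for PSAN) turned that order.

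**Figure D4:**
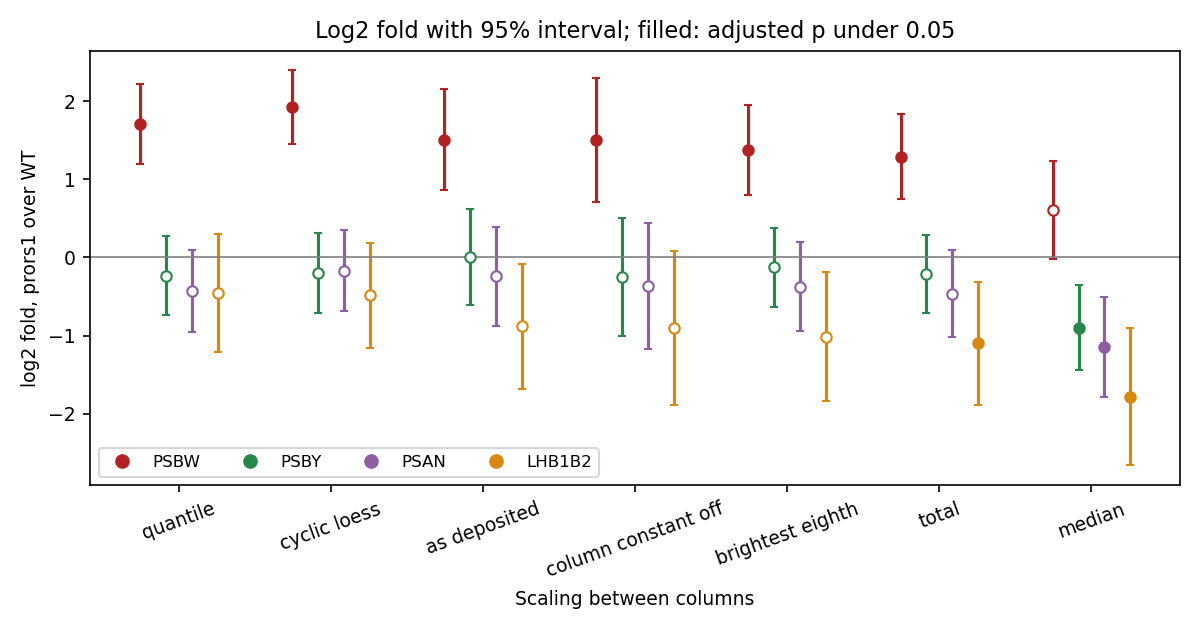
Log2 fold prors1 over WT with its 95% interval (vertical) for the 4 genes under 7 ways of scaling the columns (horizontal), where filled points have a limma adjusted p under 0.05. PSBW lies above 0 throughout and misses the threshold under median scaling alone, whereas LHB1B2 is filled under total and median scaling and PSBY and PSAN under median scaling alone.

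The genes with the most similar profile were sought among 542 genes whose own probe was above 0 in all 12 columns, by the root mean square difference of their centred, quantile-normalized log2 values. Nearest to PSBW were CYN, the cyanase gene, at 0.198 and AT4G32060 at 0.225, with log2 folds of 1.54 ± 0.26 and 2.097 ± 0.238 (SE). Nearest to PSBY were AT3G03590 at 0.145 and CHLM, the methyltransferase of chlorophyll synthesis, at 0.150, with log2 folds of -0.29 ± 0.21 and -0.25 ± 0.23. PSAN was most like AT2G02590 at 0.132 and AT3G54210 at 0.169. LHB1B2 was most like AT5G38360 at 0.218 and AT5G11010 at 0.232. None of the 4 genes had another of them among its nearest, which says little, as only 2 of 542 candidates were kept for each. These 12 columns were taken as 6 arrays, the genes share their arrays and scaling, and the folds of genes chosen by likeness are a description.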

How the data were processed

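The deposited table holds intensities on a linear scale, from 0 to 100; per the labels and the table, no scanner, background correction or scaling is named, and how the authors made them is not given in the sources used here. All 12 columns were matched by their identifiers, and 0 were left over. The 4 genes, the lists and the tests were chosen with earlier results of these data known. Probes were named through the platform annotation of 2016 and the TAIR10.1 gene table: of 3439 probes, 692 list 1 gene (690 matched), 870 several and 1877 none. Named are the 4 genes and, for each, the 2 genes of most similar profile. Columns taken as readings of the same array correlated at 0.951 to 0.961 in prors1 and 0.902 to 0.915 in WT. Other columns of a group correlated at 0.881 to 0.895 in prors1 and 0.840 to 0.878 in WT. Columns taken as the same array were averaged after values of 0 were set missing and the rest log2 transformed and quantile normalized. Probes with at least 4 of 6 values above 0 per group were fitted with limma 3.58.1 (lmFit, eBayes, R 4.3.3), with group as the only term, two-sided, and Benjamini-Hochberg adjustment over 2908 probes. The 4 genes were above 0 in all columns. The procedure was tested on simulated data.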

Additional observations from a re-analysis of the deposited data

How the results depend on the processing

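Total scaling, the brightest-eighth scaling, the constant per column (0 to 0.296), the running median along probe numbers and the unscaled fit with a block were chosen after the data were seen. PSBW lost its call in 1 of 35 alternatives, median scaling (0.61), and its log2 fold ran from 0.61 to 1.98 over them. Of the 35, 18 left out 1 array or column of the quantile-normalized fit, and several others kept its fold unchanged. With 1 array or column left out PSBW ran from 1.60 to 1.80 (limma adjusted p = 0.00323 to 0.0204). LHB1B2 then ran from -0.73 to -0.21, PSAN from -0.56 to -0.33 and PSBY from -0.32 to -0.11, none called. LHB1B2 was called under median (-1.78) and total scaling (-1.10), with the label number 1 to 6 as replicate block (-0.45) and unscaled with the array number as replicate block (-0.88). PSAN was called under median scaling (-1.14) and, at -0.43, with 6 separate columns or the label number as replicate block, and PSBY under median scaling (-0.90). As deposited, with or without the block, PSBY turned (0.0042). PSBW minus PSAN was 2.14 after quantile normalization and 2.09 after cyclic loess, and PSBW minus PSBY 1.94 and 2.12; PSBY minus PSAN turned with loess (-0.032). Probes called numbered 764 (372 higher, 392 lower), against 1332 as deposited (1250, 82), 1473 with the array block added (1376, 97), 1443 with 6 separate columns (644, 799), 1532 with the label number as block (686, 846), 1215 scaled on the brightest eighth (1094, 121), 389 with the constant taken off (197, 192) and 1066 under total scaling (922, 144). With 1 left out they ran from 398 to 756, lowest without prors1 array 2 (398) or 1 (457) and WT array 3 (469) or 1 (496). Fewer arrays remove degrees of freedom and separate columns add them; other causes were not tested. With the array number as replicate block no call of the 4 genes changed after quantile normalization. Same-numbered arrays deviated together at r = 0.183, 0.0827 and 0.238 and same-numbered columns at 0.0936 to 0.268. They were not treated as paired, since these values are low and no label gives a pairing. Arrays of unlike number lay at -0.177 to -0.0133. Deviations were taken from the group mean, so values above 0 for like numbers pull those for unlike numbers below 0. Each gene had 1 probe, so averaging probes gave no value.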
